A study of Bos taurus with 26 samples.

Results

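The corpus luteum was compared with the endometrium in Holstein cows on day 13 of the oestrous cycle, by RNA sequencing. All 26 libraries of the series entered the comparison, 12 from biopsies of the corpus luteum and 14 from biopsies of the uterine horn on the same side. The libraries were chosen by their tissue label alone. They came from a high-fertility line (Fert+, 7 luteal and 8 endometrial libraries) and a low-fertility line (Fert-, 5 luteal and 6 endometrial libraries), which the labels give as the genotype. The labels name no other treatment of the cows. The labels also assign every library to one of 4 batches and give the parity of the cow, which was 2 to 4. Luteal batch 4 held Fert+ libraries only, and so did luteal parity 2. In luteal batch 1 the Fert+ libraries were of parity 2 and the Fert- libraries of parity 4.

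The corpus luteum is a transient gland that forms in the ovary from the ruptured follicle and secretes progesterone. The endometrium is the lining of the uterus, built of surface and glandular epithelium, stroma, vessels and immune cells, and it responds to progesterone from the corpus luteum. Around day 13 of the bovine cycle the gland is mature and the endometrium is under sustained progesterone. In bulk tissue, fewer cells of a type and less RNA per cell cannot be told apart.

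The files list 24616 gene IDs without symbols, and 0 of these IDs matched the gene table used here. The tissue labels could therefore not be checked against marker genes, the functions of the IDs are not given, and no promoter or protein sequence is shown. Whether each library came from a separate cow is not stated, and the p-values then describe only the variation among the samples, which may be technical. For 9 of the 12 luteal libraries, an endometrial library with a number lower by 14 had the same line, batch and parity. By line, batch and parity alone, all 12 could be matched to an endometrial library of their own. Shared cows were therefore possible, and the labels do not state them. The p-values treat the libraries as independent.

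Total counts ranged from 9627378 to 18008417 per library. They averaged 14789717 ± 2465544 (SD, n = 12) in corpus luteum and 13220581 ± 2021911 (SD, n = 14) in endometrium, and this difference did not pass the threshold (two-sided permutation test, p = 0.0879). Among the 74 pairs of libraries within a group, the closest pair still differed by a chi-square of 16.5 per degree of freedom, so none appeared to be a repeat of another. Luteal Fert+ replicates 15, 16, 18 and 19 stood apart from the other luteal libraries on the second principal component, at 48.3 to 54.5 against -56.6 to -7.91. Results that rest on them are given with and without them where both were run.

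Tissue separated the libraries more than any other direction in the data. On the values of 14968 gene IDs that passed the filter on low counts (log2 CPM, where CPM is the count scaled to a library total of 1000000), the first principal component held 72.1% of the variance and the second 5.46%. The luteal libraries lay between 69.6 and 128 on the first component and the endometrial libraries between -104 and -72.3. The gap of 142 between the tissues was larger than the range within either tissue. For the median gene ID, tissue accounted for 44.6% of the variance over libraries, line for 2.07%, and the interaction of tissue with line for 2.01%. Tissue accounted for over 50% of the variance in 6830 gene IDs (45.6%) and for over 90% in 1065 (7.12%). Without the 4 luteal libraries that stood apart, the median share of tissue was 50.9% and that of the interaction 1.03%.

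**Figure D1:**
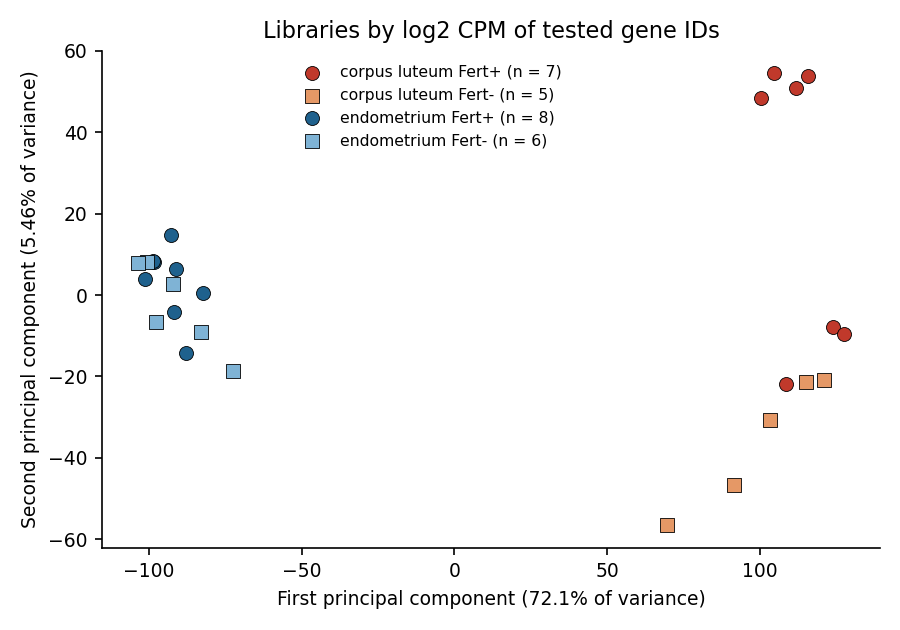
Libraries on the first 2 principal components of log2 CPM over 14968 gene IDs, 1 point per library, with the share of variance on each axis. The 12 luteal libraries lie on the right and the 14 endometrial libraries on the left with no overlap, and 4 luteal Fert+ libraries lie at 48.3 to 54.5 on the vertical axis.

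Rank correlations between libraries gave the same separation. Spearman's rho over the tested gene IDs was 0.913 to 0.989 between luteal libraries (66 pairs, median 0.961) and 0.923 to 0.986 between endometrial libraries (91 pairs, median 0.968). Between a luteal and an endometrial library it was 0.788 to 0.864 (168 pairs, median 0.818). The highest value between tissues was thus below the lowest value within either tissue. These correlations are across gene IDs, which are not independent replicates.

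A large part of the transcriptome differed between the tissues. With line as a covariate, 10875 of the 14968 gene IDs tested (72.7%) differed at an adjusted p under 0.05 in edgeR's quasi-likelihood test. Corpus luteum had the higher level for 4986 of them (33.3% of those tested) and endometrium for 5889 (39.3%). The endometrial side held 54.2% of the calls. With scaling by total counts alone it held 72.5%, with 3099 IDs higher in corpus luteum and 8169 higher in endometrium. That scaling moved the median log2 fold change of all gene IDs by -0.33, from -0.08 to -0.41. The luteal side held more calls in 9 of 42 alternative analyses. One was a stricter filter on low counts, with 5059 higher in corpus luteum and 4743 higher in endometrium. The other 8 each left out 1 library: endometrial Fert+ replicate 2, 4, 7 or 12, endometrial Fert- replicate 3, 8 or 14, or luteal Fert+ replicate 16. In these 8 the endometrial side held 48.5% to 48.9% of the calls. The median log2 fold change of all gene IDs moved by 0.09 in each of them, and by 0.10 with the stricter filter. It moved by at most 0.00825 in the other fits that left out 1 library. Scaling was computed anew in each fit. The order of the sides thus moved with the median of all gene IDs, and the cause of that shift was not tested. Without the 4 luteal libraries that stood apart, 10852 gene IDs were called, 5394 higher in corpus luteum and 5458 higher in endometrium.

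Complete separation of the tissues was less common than a call. For 1620 gene IDs (10.8% of those tested) the lowest luteal library was above the highest endometrial library, and for 1824 (12.2%) every endometrial library was above every luteal one. In 1563 gene IDs (10.4%) the tissue means of log2 CPM lay more than 5 pooled SDs apart.

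The called differences were mostly modest in size, with long tails. The median absolute log2 fold change over all tested gene IDs was 0.60, and the median standard error 0.14. Over the called gene IDs the median was 0.81 on the luteal side and -0.92 on the endometrial side. Of the 4093 gene IDs that were not called, 3728 had an absolute log2 fold change under 0.5. The central 90% of all log2 fold changes ran from -3.57 to 2.14, so the endometrial tail reached further. The extremes were -12.72 and 15.03, the first of them fitted for a gene ID with no luteal count. Among gene IDs with counts in both tissues the lowest was -11.22.

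The endometrial tail held more gene IDs at intermediate folds but not at the largest. More than 2-fold differences were called for 1980 gene IDs higher in corpus luteum and 2735 higher in endometrium. Beyond 10-fold there were 369 and 829, beyond 100-fold 68 and 140, and beyond 1000-fold 15 on each side. Some of the fitted folds have no measured denominator: 5 tested gene IDs had no count in any endometrial library, and 30 had none in any luteal library. With these set to the bound that a floor of 3 pooled counts allows, the numbers beyond 100-fold were 66 and 134, and those beyond 1000-fold were 15 and 14. The share of over 10-fold calls on the endometrial side was 69.2%, and it was 63.3% to 75.3% over the 42 alternatives.

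**Figure D2:**
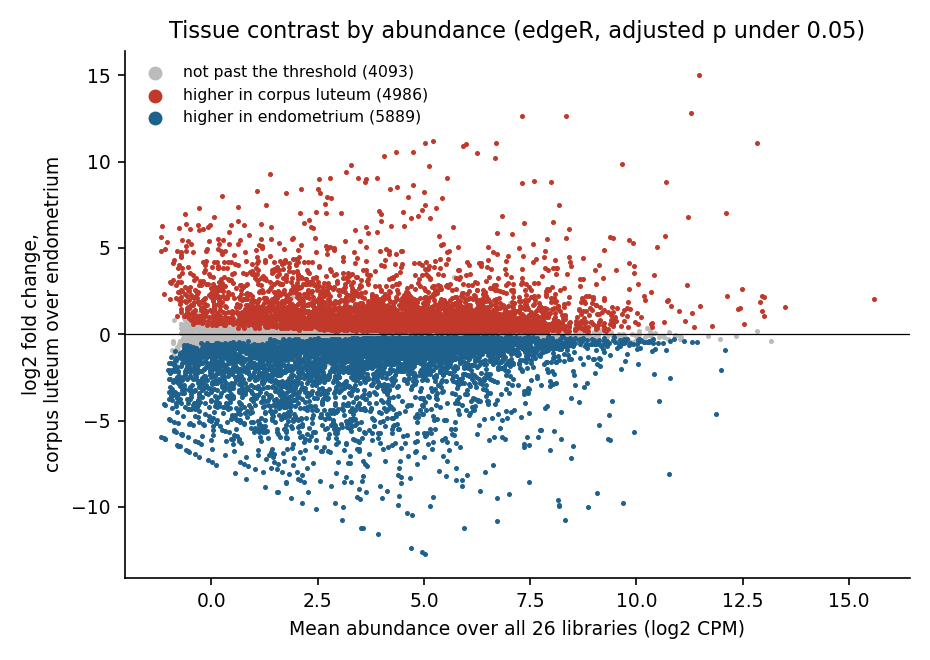
Log2 fold change of corpus luteum over endometrium against mean abundance (log2 CPM over all 26 libraries), 1 point per tested gene ID. Red points (4986) are higher in corpus luteum, blue points (5889) higher in endometrium and grey points (4093) are not called, and the blue cloud is deeper at low abundance.

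The balance of the sides shifted with abundance. In the lowest quintile of gene IDs by mean abundance, 25.1% of the IDs were called higher in corpus luteum and 43.5% higher in endometrium. In the highest quintile these shares were 42.4% and 33.9%. The median absolute log2 fold change fell from 1.13 in the lowest quintile to 0.70 and 0.49 in the following ones, and was 0.46 and 0.50 in the highest ones. The median standard error was 0.32 in the lowest quintile and 0.10 in the highest, so the larger values at low abundance were also the less precise. Over 10-fold calls numbered 144 on the luteal side and 362 on the endometrial side in the lowest quintile, against 79 and 87 in the highest.

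Spread within a tissue was somewhat larger in corpus luteum. The median SD of log2 CPM across libraries was 0.37 in corpus luteum and 0.31 in endometrium, and 60.6% of the gene IDs had the larger SD in corpus luteum. Without the 4 luteal libraries that stood apart, the luteal median was 0.30 and the share 50.4%.

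Within each batch the contrast kept its form, with fewer calls from fewer libraries. In edgeR fits within batches, 53.9% of the tested gene IDs were called in batch 1 (4 luteal and 5 endometrial libraries) and 56.4% in batch 3 (4 and 4). The share was 46.7% in batch 4 (2 and 3) and 19.1% in batch 2 (2 and 2). Of the gene IDs called over all libraries and tested in a batch, 10547 of 10758 had the same sign in batch 1 and 10574 of 10795 in batch 2. The numbers were 10718 of 10749 in batch 3 and 10303 of 10825 in batch 4. The libraries of a batch are part of the overall fit, so these counts are a description.

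Detection in one tissue alone was rare beyond a handful of reads. Counts in both tissues were found for 18661 gene IDs, in corpus luteum alone for 770 and in endometrium alone for 949. A further 4236 had no count anywhere. The median one-tissue gene ID had a total of 1 count in corpus luteum and 2 in endometrium, so most could not be told from a depth limit. Present in every library of their own tissue and absent from the other were 14 luteal and 37 endometrial gene IDs. The most abundant endometrium-only gene ID had a lowest value of 4.66 CPM, a median of 57.5 and a highest of 88.0 over the 14 libraries. Against the floor of 3 counts pooled over the luteal libraries, it was at least 3865-fold higher in endometrium. The luteum-only gene ID with the highest mean (23.6 CPM) reached 284 CPM, while its median over the 12 luteal libraries was 0. This mean rested on 1 library.

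Gene IDs higher in a tissue held a larger share of that tissue's counts than of the other's. The 4986 gene IDs called higher in corpus luteum held 61.8% ± 2.63 (SD, n = 12) of the luteal counts and 30.1% ± 1.51 (SD, n = 14) of the endometrial counts. The 5889 called higher in endometrium held 17.6% ± 1.25 and 43.4% ± 2.56. The 4093 not called held 20.6% ± 1.35 and 26.5% ± 1.35. These classes came from the same contrast, so the shares describe its weight and are no further test.

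The strongly tissue-biased gene IDs carried a small share of the counts. The 369 gene IDs over 10-fold higher in corpus luteum held 9.03% ± 1.55 of the luteal counts, with 5.66% in the lowest library and 10.3% in the highest. In endometrium they held 0.285% ± 0.0286. The 829 gene IDs over 10-fold higher in endometrium held 6.13% ± 2.90 of the endometrial counts, with 3.25% in the lowest library and 15.5% in the highest. In corpus luteum they held 0.165% ± 0.0874.

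The following levels are CPM with scaling by trimmed mean of M values (TMM), not per transcript length, so an order between gene IDs is an order of counts. The same gene ID was the most abundant in both tissues. ENSBTAG00000043561 had a lowest value of 59348 CPM, a median of 79925 and a highest of 114428 in corpus luteum, and 15514, 20246 and 31846 in endometrium. Every luteal library was above every endometrial one. It was the most abundant gene ID in 12 of 12 luteal and 12 of 14 endometrial libraries, with 7.30% of the luteal and 2.24% of the endometrial counts on average. The log2 fold change was 2.04 (SE 0.10, edgeR adjusted p = 6.21e-16). Within batches it was 2.07, 2.01, 2.29 and 1.58 for batches 1 to 4, and the value of batch 2 did not pass the threshold (edgeR adjusted p = 0.204).

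ENSBTAG00000043560 was the second luteal gene ID and ranked 6 in endometrium. Its levels ran from 12020 to 24719 CPM in corpus luteum (median 17490) and from 4729 to 8703 CPM in endometrium (median 5769). The tissues did not overlap here either. The log2 fold change was 1.57 (SE 0.09, edgeR adjusted p = 5.39e-14), and within batches 1 to 4 it was 1.51, 1.74, 1.85 and 1.08, of which the value of batch 2 did not pass the threshold (edgeR adjusted p = 0.187).

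The most abundant gene IDs called higher in endometrium varied to different degrees between libraries. ENSBTAG00000031160, at rank 4 in endometrium and rank 654 in corpus luteum, had a lowest value of 239 CPM, a median of 2437 and a highest of 51262 in endometrium. In corpus luteum the values were 39.9, 119 and 836. The ranges overlapped, and the endometrial mean of 6730 ± 13184 (SD, n = 14) was set largely by Fert+ replicate 1. The log2 fold change was -4.60 (SE 0.78, edgeR adjusted p = 8.18e-06) and ran from -4.83 to -3.82 when single libraries were left out. Within batches 1 to 4 it was -3.86, -3.26, -2.75 and -8.03, and batch 4 holds Fert+ replicate 1. ENSBTAG00000003505, at rank 5 in endometrium and rank 63 in corpus luteum, was steadier. It had 3150, 6409 and 8248 CPM (lowest, median and highest) in endometrium and 844, 1291 and 3485 in corpus luteum, and the lowest endometrial library was below the highest luteal one. Its log2 fold change was -2.05 (SE 0.19, edgeR adjusted p = 3.42e-10), and within batches 1 to 4 -1.76, -2.12, -2.16 and -2.49, of which the value of batch 2 did not pass the threshold (edgeR adjusted p = 0.0514).

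The lists of most abundant gene IDs overlapped more the longer they were. Of the 10 most abundant by mean CPM, 4 were shared between the tissues, of the 50 most abundant 27, of the 100 most abundant 58, of the 1000 most abundant 681 and of the 5000 most abundant 4059. Of the 100 most abundant luteal gene IDs, 19 ranked below 1000 in endometrium, while 7 of the 100 most abundant endometrial ones ranked below 1000 in corpus luteum. All 10 of the luteal list were called higher in corpus luteum, as were 33.3% of all gene IDs tested. Of the 10 in the endometrial list, 4 were called higher in corpus luteum, 3 were higher in endometrium (39.3% of all tested were) and 3 were not called. A list picked by abundance in one tissue favours calls toward that tissue, so nothing is read from these counts.

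Several of the top luteal gene IDs had far lower levels in endometrium. They are given by rank, and were chosen after their values were seen. The gene ID at luteal rank 3 had 15778 ± 6121 CPM in corpus luteum (lowest library 1380) and 7.25 ± 1.92 in endometrium, where it ranked 10517. The gene ID at luteal rank 10 had 9549 ± 1506 and 73.6 ± 15.5 CPM, at endometrial rank 2329, and that at rank 18 had 5408 ± 974 and 0.731 ± 0.472 CPM. The largest fold of all, a log2 fold change of 15.03, belonged to luteal rank 17, with 6196 ± 2745 CPM in corpus luteum and 0.168 ± 0.160 in endometrium. Fewer abundant endometrial gene IDs stood out in this way. One that did was at endometrial rank 15, with 3199 ± 2004 CPM in endometrium and 12.2 ± 12.9 in corpus luteum, where it ranked 8664. The 2nd and 3rd endometrial gene IDs did not differ between the tissues at the threshold (log2 fold changes -0.40 and 0.17, edgeR adjusted p = 0.0948 and 0.486).

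Fewer gene IDs entered the top 10 of the luteal libraries, which were also fewer in number. Over the 12 luteal libraries, 17 gene IDs ever entered a library's own top 10 and 6 were in every one. Over the 14 endometrial libraries, 23 did and 3 were in every one. With more libraries, more gene IDs can enter and fewer can be in every one. The coefficient of variation of the top 10 was 14.3% to 38.8% in corpus luteum (median 18.6%). In endometrium it was 11.9% to 196% (median 21.2%), the highest being that of ENSBTAG00000031160.

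Many of the most abundant gene IDs had neighbouring ID numbers. A run of 38 gene IDs with numbers 43546 to 43584 held 14 of the 100 most abundant gene IDs over both tissues, 8 of the luteal and 5 of the endometrial top 10. It was chosen after the values were seen, as the window of 40 numbers with most of the top 100. Within it, 16 gene IDs had no count anywhere and 20 were tested. Of these 20, 17 were called higher in corpus luteum (33.3% of all tested were), 1 was higher in endometrium and 2 were not called. The median log2 fold change in the run was 1.61, against -0.08 over all gene IDs, with a range of -0.94 to 5.54. The run held 17.6% ± 1.47 of the luteal counts, from 14.7% to 20.2%, and 6.67% ± 1.10 of the endometrial counts, from 4.34% to 9.22%, with no overlap.

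Counts in corpus luteum were concentrated in fewer gene IDs. The most abundant gene ID of a library took 7.30% ± 0.840 of its counts in corpus luteum and 2.48% ± 0.883 in endometrium. The 100 most abundant took 37.7% ± 2.71 and 26.5% ± 2.11, and the 1000 most abundant 66.1% ± 3.17 and 57.8% ± 1.57. It took 309.8 ± 85.4 gene IDs to reach 50% of the counts in a luteal library and 607.4 ± 71.7 in an endometrial one. For 90% of the counts the numbers were 4645 ± 411 and 5660 ± 147. Each of these differences had p = 1e-05 in a two-sided permutation test over the 12 and 14 libraries, the smallest that 100000 resamples can give (Benjamini-Hochberg adjusted p = 1.45e-05 over 16 measures).

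**Figure D3:**
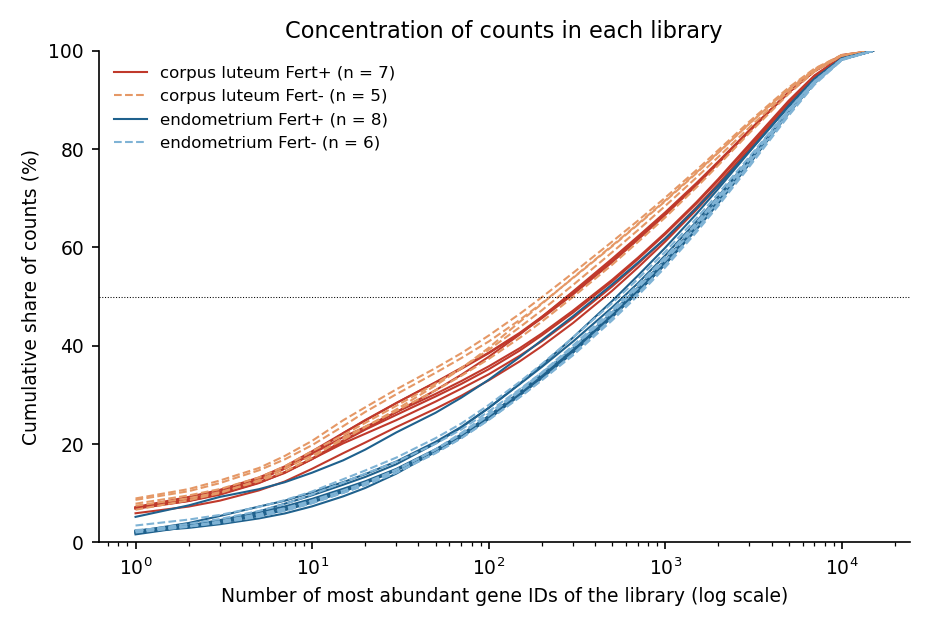
Cumulative share of a library's counts (%) against the number of its most abundant gene IDs on a log axis, 1 line per library. Luteal lines lie above endometrial ones over most of the range, reaching 50% at 203 to 459 gene IDs against 414 to 691.

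The effective number of gene IDs, the exponential of the Shannon entropy of a library's count shares, expressed this in a single value. It is the number of equally abundant gene IDs that would give the same evenness. It was 1772 ± 296 in corpus luteum (lowest 1338, median 1715, highest 2330) and 3268 ± 312 in endometrium (lowest 2363, median 3371, highest 3585). The tissues did not overlap, although the lowest endometrial library, Fert+ replicate 1, lay next to the highest luteal library. The difference was -1496 (two-sided permutation test, p = 1e-05), -1671 without the 4 luteal libraries that stood apart, and -1507, -1590, -1822 and -888 within batches 1 to 4. Batch 4 holds endometrial Fert+ replicate 1, and its luteal libraries are all among the 4 that stood apart.

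Removing the run of ID numbers made the difference between the tissues smaller. The run was picked for its abundance and held more of the luteal counts, so a smaller difference was built into that choice. The values describe what was left without it. With the run removed, the effective number was 3148 ± 415 in corpus luteum and 3831 ± 401 in endometrium (two-sided permutation test, adjusted p = 0.000733). The number of gene IDs for 50% of the remaining counts was 582.2 ± 126 and 739.6 ± 85.9 (two-sided permutation test, adjusted p = 0.00199). The 10 most abundant took 9.0% ± 0.944 and 7.00% ± 2.05 (two-sided permutation test, adjusted p = 0.00533). The tissues overlapped in all 3 of these measures. Within batches 1, 2 and 3 the difference in effective number was -743, -854 and -1004. Within batch 4, which held 2 luteal and 3 endometrial libraries, it was 81.0, so the lower luteal value was not seen there. Its luteal libraries, Fert+ replicates 15 and 18, were both among the 4 that stood apart (3762 and 3598). Its endometrial Fert+ replicate 1 had the lowest endometrial value, 2741.

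Fewer gene IDs were detected in corpus luteum. At least 1 count was present for 16563 ± 477 gene IDs in luteal and 17021 ± 131 in endometrial libraries (two-sided permutation test, adjusted p = 0.00286). After thinning every library to 9627378 counts the numbers were 16132 ± 382 and 16735 ± 56.8 (two-sided permutation test, adjusted p = 1.45e-05). At a level of 1 CPM they were 13115 ± 238 and 13657 ± 60.4. The unthinned difference was 166 in the other direction within batch 4, and -869, -144 and -527 within batches 1 to 3. Thinned, the differences were -885, -218, -667 and -291 within batches 1 to 4, lower in corpus luteum in each.

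**Figure D4:**
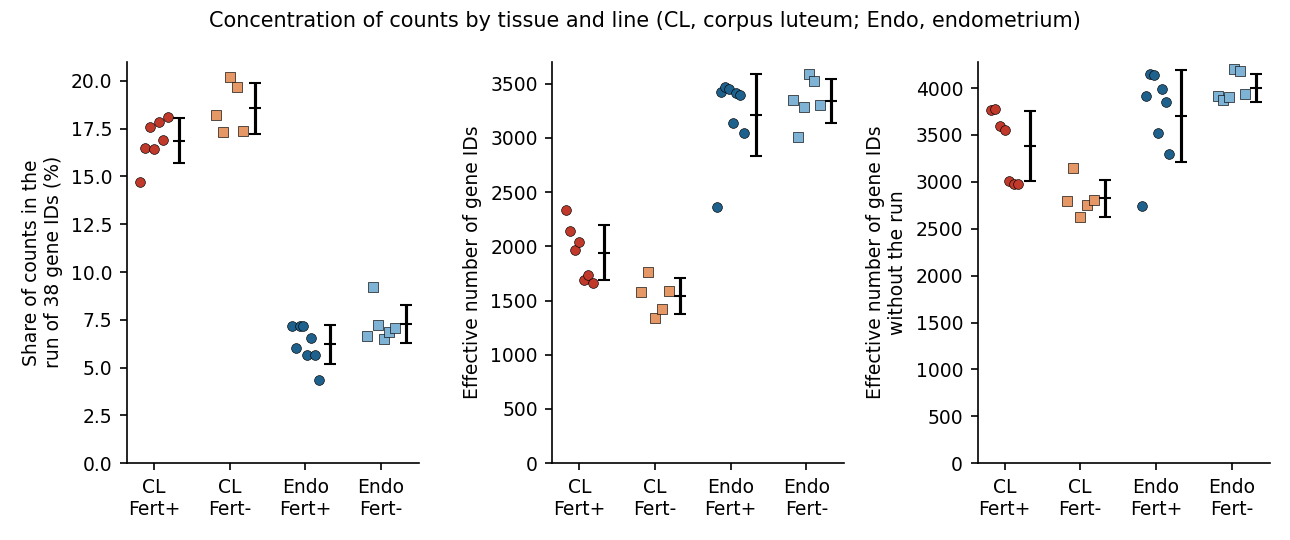
Share of counts in the run of 38 neighbouring gene IDs (%), effective number of gene IDs, and the same number without the run, 1 point per library, with mean and SD beside each of the 4 groups of tissue and line. The run's share and the effective number do not overlap between tissues, and without the run the luteal Fert+ points approach the endometrial ones.

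The tissue contrast was then fitted in each line alone, in libraries that the other line does not share. In Fert+, 9565 of 14182 gene IDs tested (67.4%) were called by edgeR, 4447 higher in corpus luteum and 5118 higher in endometrium. In Fert-, 8705 of 14230 (61.2%) were called, 4251 and 4454. Among the 13996 gene IDs tested in both, 6869 were called in both lines, which is 72.7% of the Fert+ calls and 80.1% of the Fert- calls. The direction was the same for 6756 of them and opposite for 113. Of the 4292 called in one line alone, 1157 had the opposite sign in the other.

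The fold changes of the lines lay close to a common axis. Across the 13996 gene IDs, Pearson's r was 0.919 and Spearman's rho 0.838, and the principal axis had a slope of 0.906 (Fert- per Fert+). The median absolute difference between the lines was 0.32 on the log2 scale, and 1514 gene IDs (10.8%) differed by more than 1. On plain means of log2 CPM over all 14968 gene IDs, r was 0.942 with a median absolute difference of 0.30. On the same scale without the 4 Fert+ luteal libraries that stood apart, r was 0.962 and the median difference 0.21, and 764 gene IDs (5.10%) differed by more than 1 instead of 1140 (7.62%). Gene IDs are not independent replicates, and the libraries of one tissue and line share all of these points.

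**Figure D5:**
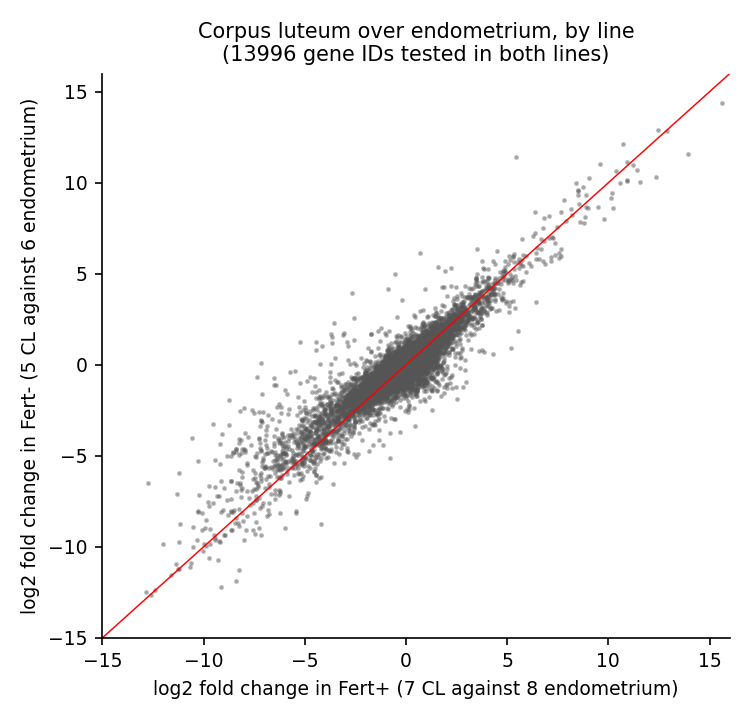
Log2 fold change of corpus luteum over endometrium in Fert- (vertical axis) against that in Fert+ (horizontal axis), 1 point for each of 13996 gene IDs tested in both lines, with the line of equality. The principal axis of the points, which is not drawn, had a slope of 0.906. For 1514 gene IDs the Fert+ and Fert- values differed by more than 1 log2 unit.

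No gene ID passed the threshold in the test of the difference between the lines. The interaction of tissue and line was called for 0 of 14968 gene IDs (0.0%) by edgeR at an adjusted p under 0.05, and the lowest adjusted p was 0.0543. At an unadjusted p under 0.05 there were 3545 (23.7%), where uniform p-values would give 748.4. Of these, 1815 had the higher value in Fert+ and 1730 the lower. This count of 0 stood close to the threshold. DESeq2 called 1135 interactions, limma-voom with sample quality weights 3214, and edgeR with total counts alone 1537. Of those 1537, 1376 had the higher value in Fert+ and 161 the lower. That scaling moved the median interaction of all gene IDs from -0.01 to 0.21. Leaving out single luteal libraries gave edgeR counts of 1730 (Fert+ replicate 23), 1129 (Fert+ replicate 24), 987 (Fert+ replicate 21), 608 (Fert- replicate 20) and 187 (Fert- replicate 27). Leaving out any of the other 21 libraries gave 0. With batch and parity as added factors edgeR called 0, with a lowest adjusted p of 0.0508 and 3704 gene IDs at an unadjusted p under 0.05.

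The 4 luteal Fert+ libraries that stood apart moved with these numbers. Without them edgeR called 0 interactions with a lowest adjusted p of 0.561, limma-voom called 0 and DESeq2 12, and 912 of 15135 gene IDs had an unadjusted p under 0.05 in edgeR. The 4 were picked from these same data, and leaving them out kept 3 luteal Fert+ libraries. The drop in calls cannot be told apart from this loss of libraries. These 4 libraries came from batches 2, 3 and 4, and the 3 whose removal gave most calls were the remaining luteal Fert+ libraries. Within batch 1, which holds none of the 4, edgeR called 0 of 14893 interactions (0.0%), with 702 at an unadjusted p under 0.05 where uniform p-values would give 745. Within batch 3, which holds 1 of them, it called 0 of 14832 (0.0%), with 633 where 742 would be given. Luteal batch 4 has no Fert- library, so the interaction could not be fitted there. In luteal batch 1, Fert+ was of parity 2 and Fert- of parity 4, so line and parity cannot be told apart there.

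The gene IDs with the smallest interaction p in each direction show the sizes involved. ENSBTAG00000019553 had 1.84 ± 0.798 CPM (SD, n = 7) in luteal Fert+, 0.493 ± 0.200 (n = 5) in luteal Fert-, 0.326 ± 0.167 (n = 8) in endometrial Fert+ and 0.578 ± 0.312 (n = 6) in endometrial Fert- libraries. Every luteal Fert+ library, from 0.976 to 3.13 CPM, was above every luteal Fert- library, at 0.287 to 0.737 CPM. Its interaction was 2.66 on the log2 scale (SE 0.55, edgeR adjusted p = 0.0543), at levels near 1 CPM. Without the 4 libraries it was 2.93 (edgeR adjusted p = 0.823) and 2.98 in DESeq2 (adjusted p = 0.0487). ENSBTAG00000020807 had 145 ± 30.9 CPM in luteal Fert+, 242 ± 42.8 in luteal Fert-, 289 ± 22.4 in endometrial Fert+ and 285 ± 11.5 in endometrial Fert- libraries. The luteal lines overlapped slightly, at 120 to 208 CPM in Fert+ and 206 to 310 CPM in Fert-. Its interaction was -0.76 (SE 0.16, edgeR adjusted p = 0.0543), and -0.52 without the 4 libraries (edgeR adjusted p = 0.823).

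The abundant gene IDs named above gave these contrasts in the lines. For ENSBTAG00000043561 the log2 fold change was 1.97 in Fert+ and 2.21 in Fert-, and for ENSBTAG00000043560 it was 1.45 and 1.82. For ENSBTAG00000031160 it was -5.21 and -3.72. For ENSBTAG00000003505 it was -2.46 and -1.43. Of these 4, ENSBTAG00000003505 had the smallest interaction p, with an interaction of -0.95 (SE 0.32, edgeR adjusted p = 0.0825). None of the 4 interactions passed the threshold.

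Interaction estimates among the strongly endometrial gene IDs were mostly negative where the unadjusted p was low. Of the 829 over 10-fold higher in endometrium, 178 (21.5%) had an unadjusted interaction p under 0.05, against 23.7% of all tested gene IDs. Among the 178 were 155 with a more endometrial contrast in Fert+ and 23 with a less endometrial one. Over all 829 the median interaction was -0.51, against -0.01 over all tested gene IDs. Of the 369 over 10-fold higher in corpus luteum, 40 (10.8%) had an unadjusted p under 0.05, 23 with a more luteal contrast in Fert+ and 17 with a less luteal one. Over all 369 the median interaction was 0.07. The tissue classes came from the same libraries, and none of these passed the adjusted threshold. These counts by direction were not taken without the 4 luteal Fert+ libraries that stood apart. Without those, 912 of 15135 gene IDs had an unadjusted p under 0.05.

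Concentration of counts differed between the tissues less in Fert+ than in Fert-. In luteal libraries the number of gene IDs for 50% of the counts averaged 359.1 in Fert+ (SD 74.8, n = 7) and 240.8 in Fert- (SD 38.2, n = 5). In endometrium it averaged 594.2 (SD 84.9, n = 8) and 625 (SD 51.3, n = 6). The tissue difference was -235 in Fert+ and -384 in Fert-, and the difference of these differences was 149 (exact permutation of the line labels within each tissue, two-sided, adjusted p = 0.0467). For the number of gene IDs for 90% of the counts it was 651, and for the share of the 1000 most abundant -5.25 percentage points (exact permutation, adjusted p = 0.0282 for each). For the share of the 100 most abundant it was -4.46 percentage points (exact permutation, adjusted p = 0.0467). For the effective number it was 528 (exact permutation, adjusted p = 0.0528). For the share of the 10 most abundant it was -2.15 percentage points (exact permutation, adjusted p = 0.174), and for the run's share -0.66 (exact permutation, adjusted p = 0.617).

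The same 4 luteal libraries and the batches moved with this difference between the lines. Without the 4 libraries, each of the 16 measures had an adjusted p of at least 0.271 in the exact permutation test, and the difference of differences was 73.6 for the gene IDs that make up 50% of the counts. Within batch 1 that value was 4.67, within batch 2 it was 121 and within batch 3 it was 182. The effective number gave -47.3, 353 and 704. Batch 2 holds 1 library of each tissue and line, and in luteal batch 1 line and parity cannot be told apart. The 4 libraries were picked from these same data, and leaving them out kept fewer luteal Fert+ libraries. The higher adjusted p without them cannot be told apart from that loss. The part of the 4 libraries in these values beyond leaving them out was not tested.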

How the data were processed

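Polyadenylated RNA of 12 luteal and 14 endometrial biopsies was sequenced. Per the labels' protocols, tissue was washed and snap-frozen, TRIzol was used for RNA extraction, and the library kit was TruSeq RNA, a kit without strand marking. Per the submitters' processing notes, CASAVA 1.9, FastQC 0.10.0, Trim Galore, STAR 2.3.0, featureCounts and the build UMD3.1 were used. The strand setting, the multi-mapping rule and the annotation release were not given in the sources used here. Genes that overlap, lie antisense or have near-identical copies therefore have uncertain values. The deposited files hold whole-number read counts per gene ID, not normalized, and were used as deposited.

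Counts were analysed in R 4.3.3 with edgeR 4.0.16: filterByExpr by tissue and line, TMM scaling, a robust quasi-likelihood fit with line and tissue, and an F test with Benjamini-Hochberg adjustment over all gene IDs tested (threshold 0.05). The interaction was tested with a tissue by line term, and each line was fitted alone. A positive log2 fold change means higher in corpus luteum. Log2 CPM used a prior count of 2. Concentration measures were compared between tissues by two-sided permutation (100000 resamples) and between lines by exact permutation of the line labels within each tissue (792 luteal by 3003 endometrial splits), in place of the planned resampling because groups held under 10 libraries. Counts were also simulated for the 14968 gene IDs, with 93 changed by 1 and 107 by 2 (log2) and no other difference between groups. Dispersions came from the fit with line and tissue. The tissue test recovered 74.2% of changes of 1 and 95.3% of changes of 2, and the interaction test 36.6% and 79.4%. Far more gene IDs differed between the tissues in the data, so these shares hold for the simulated setting only.

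Alternatives were RLE, upper-quartile and total-count scaling, no filter and a mean log2 CPM of at least 1, batch, batch with parity or a stratum as factors, DESeq2 1.42.0, limma 3.58.1 with voom and quality weights, an adjusted p under 0.01, glmTreat against a 2-fold change, a prior count of 5, leaving out each library, and leaving out 4 luteal libraries. Alternatives chosen after seeing the data were the combinations without those 4 libraries, fits within batches, means of log2 CPM, and measures without the run of ID numbers. The named gene IDs were the 2 most abundant per tissue among those called higher there and the smallest interaction p in each direction. The 11 gene lists prepared for the tissues could not be used, because 0 gene IDs matched the table (assembly ARS-UCD2.0). Comparisons and lists were chosen with earlier results of these data known.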

Additional observations from a re-analysis of the deposited data

Results flagged for a closer look

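In 80 sets of 5 to 8 libraries of one tissue and line, each holding the values of 1 measure, 11 had a highest or lowest library far from the nearest of the others by Dixon's criterion, where chance gives about 4 (1 in 20). Several measures share the same counts, so the 11 are not independent.

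Endometrial Fert+ replicate 1 accounted for 5 of them. Its most abundant gene ID took 5.20% of its counts, against 2.41% in the next library. Its 10 most abundant took 14.2% (next 10.2%) and its 100 most abundant 33.1% (next 27.4%). Its effective number of gene IDs was 2363, against 3045 in the next lowest library. ENSBTAG00000031160 had 51262 CPM there and 11181 in the next library. In endometrial Fert- replicate 8 the same gene ID, ENSBTAG00000031160, had 8769 CPM, against 2379 in the next library.

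Endometrial Fert- replicate 6 had the highest share of its most abundant gene ID in its group, 3.44% (next 2.50%). ENSBTAG00000043561 had 31846 CPM there (next 22501), and the run of neighbouring ID numbers took 9.22% of its counts (next 7.21%). In luteal Fert+ replicate 15 the most abundant gene ID took 5.93% of the counts, the lowest of its group (next 6.84%). In luteal Fert- replicate 20, 571 gene IDs made up 50% of the counts outside the run (next 471).

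The tissue difference in 6 measures of concentration was not the same in both lines, by exact permutation of the line labels within each tissue with adjustment over 16 measures. The tissue difference in Fert+ minus that in Fert- was -4.46 percentage points for the share of the 100 most abundant gene IDs (adjusted p = 0.0467) and -5.25 for the 1000 most abundant (adjusted p = 0.0282, exact permutation for each). It was 149 gene IDs for 50% of the counts (exact permutation, adjusted p = 0.0467) and 651 for 90% (exact permutation, adjusted p = 0.0282). Without the run it was 238 gene IDs for 50% of the counts and 859 for the effective number (exact permutation, adjusted p = 0.0282 for each). Without the 4 luteal Fert+ libraries that stood apart, the latter values were 125 and 468 (exact permutation, adjusted p = 0.271 for each). Within batches 1, 2 and 3 they were 93.3, 206 and 254 gene IDs, and 320, 536 and 1002 in effective number.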

How the results depend on the processing

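The 4 named tissue contrasts kept their direction and stayed past the threshold under all 16 alternatives and all 26 leave-one-out fits. No result changed sign past the threshold. Against a 2-fold change (glmTreat), 3586 gene IDs differed between tissues (1482 higher in corpus luteum, 2104 in endometrium), 3171 within Fert+ and 2599 within Fert-. With total counts alone, 3099 were higher in corpus luteum and 1537 interactions were called. DESeq2 called 1135 interactions, limma-voom 3214, and DESeq2 without the 4 luteal libraries that stood apart 12. Leaving out single libraries gave 10708 to 11102 tissue calls and 0 to 1730 interactions. The difference of tissue differences between lines ran from -2.54 to -1.47 percentage points for the share of the 10 most abundant (exact permutation p = 0.0478 to 0.172), the value without endometrial Fert+ replicate 10 being -2.44. Without the 4 libraries it was 73.6 for the gene IDs that make up 50% of the counts, 285 for the effective number and -249 for detected gene IDs. The cause of these changes was not tested. No paired analysis was run, because the tissues share no replicate number in the labels and the labels tie no libraries together. A fit blocked on candidate pairs was not run either. With line, batch and parity as a stratum, 10829 tissue calls were made. Batch with parity could not be fitted within Fert-, and the stratum was not run for the interaction. In simulated counts with few changed gene IDs, the interaction test recovered 36.6% of log2 changes of 1. The simulation left out the wide tissue differences of the data, so this share is not the recovery here. Differences between lines may have gone undetected.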
